A study of Homo sapiens with 6 samples.

Results

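The genes described here encode molecules by which tumour cells restrain immune cells. They are CD274 (PD-L1) and PDCD1LG2 (PD-L2), CD276 and VTCN1, PVR and NECTIN2, LGALS9, CD47, and the enzymes NT5E and IDO1. They were chosen by gene name, and all 10 of them were among the 35856 genes listed in the deposited table. RNA was sequenced from HCCLM3, an established human hepatocellular carcinoma cell line, in 2 groups of 3 libraries each. The LINC00862 group was transfected with a pcDNA3.1 vector that carried the full-length long noncoding RNA LINC00862, and the control group, Empty, which the labels call NC, with the vector alone. By the labels, both groups share the line. The vector and the transfection are taken from the study's other methods. Its sequencing methods state the overexpression but name neither the control vector nor the type of transfection. No added immune cells are mentioned. Nothing in the labels or methods used here says that the 3 libraries of a group came from separate cultures, so the p-values measure the spread between these libraries, which may be technical.

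Checkpoint ligands of the B7 family bind receptors on T cells. CD274 and PDCD1LG2 share the receptor PD-1 and dampen T cell activation, while CD276 and VTCN1 inhibit T cells through receptors that are less well defined. PVR and NECTIN2, proteins of the nectin family, bind the inhibitory receptor TIGIT and the activating receptor CD226, so that they can either restrain or trigger T and NK cells. CD47 binds SIRPA on macrophages as a signal against engulfment. NT5E (CD73) converts extracellular AMP to adenosine, and IDO1 opens the breakdown of tryptophan to kynurenine, and both products suppress T cells.

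The library totals lay between 58241123 and 68229070 counts. Counts correlated across genes (Spearman, a description, since genes are no replicates) at 0.973 to 0.987 within a group and at 0.768 to 0.774 between the groups. Of 20741 genes that passed edgeR's filter on low counts, 13321 (64.2%) differed between the groups at a false discovery rate of 0.05, 34.4% being higher and 29.8% lower in LINC00862, so that a call on a single gene is common in this comparison. FPKM ranges did not overlap between the groups in 71.1% of the tested genes. LINC00862 itself was higher in each library labelled LINC00862 (log2 fold change 3.22, standard error 0.53), but its level was low. It had 11, 21 and 6 counts in Empty and 145, 121 and 76 in LINC00862. The FPKM was 0.0425, 0.0884 and 0.0214 in Empty and 0.530, 0.506 and 0.312 in LINC00862. The gene passed the filter only through the LINC00862 libraries, so the fold change adds nothing to these counts.

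Of 12 hepatocyte and hepatoma markers, 10 were tested, 8 being higher and 2 lower in LINC00862. The summed FPKM of the list was 5.78 to 6.06 in Empty and 1260 to 1507 in LINC00862, where FGA and FGB, chains of fibrinogen, with means of 796 and 550 FPKM against 2.67 and 1.75 in Empty, made up nearly all of it. TF, the gene of transferrin, was at 0.0369 FPKM in Empty and 15.5 in LINC00862. SERPINA1 and the fetal liver gene AFP went the other way. SERPINA1 was at 1.29 FPKM in Empty and 0.0950 in LINC00862, and AFP had 14, 24 and 30 counts in Empty and 0 in every LINC00862 library, at least 21.2-fold higher in Empty. ALB, the defining hepatocyte gene, was at 0, 0 and 0.0234 FPKM in Empty and at 1.61, 1.71 and 1.21 FPKM in LINC00862, APOA1 was near 0 in both groups, and TTR and GPC3 were at 0 counts in every Empty library. Whether the groups, which differed in these markers and in 64.2% of all tested genes, held otherwise the same cells was not tested, and a difference between the cells and the effect of LINC00862 cannot be told apart in the fold changes given here.

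Of 24 leukocyte markers, 19 were tested and 5 were called (26.3% beside 64.2% of all tested genes), 3 higher and 2 lower. CD14 and CD68, markers of monocytes and macrophages, went from 1.69 to 5.59 and from 1.00 to 6.81 FPKM, while NCAM1, which NK cells and neural cells carry, went from 5.59 to 0.0201 and LAG3, an inhibitory receptor, from 1.59 to 0.0732. The summed FPKM was 11.4 to 14.2 in Empty and 11.3 to 17.8 in LINC00862, and PTPRC, which all leukocytes carry, was at 0.283 ± 0.0673 FPKM in Empty and 0.198 ± 0.0394 in LINC00862 (SD, n = 3). In bulk RNA, fewer cells with a transcript and less transcript per cell cannot be told apart.

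All 10 genes passed the filter, VTCN1 only through the LINC00862 libraries and IDO1 only through the Empty libraries. In the quasi-likelihood test, 2 were higher in LINC00862 (CD274 and VTCN1), 5 were lower (PDCD1LG2, CD276, NT5E, PVR and NECTIN2), and LGALS9, CD47 and IDO1 were not called. That is 70% of the genes, beside 64.2% of all tested genes. Since VTCN1 and IDO1 each passed the filter only through the group where they are high, this share is only a description. FPKM ranges did not overlap in 8 of the 10, beside 71.1% of all tested genes. Their median log2 fold change was -0.59, against 0.11 over all tested genes.

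For 4 of the genes, the RefSeq promoter window (GRCh38.p14, 250 bases before the start site and the first 50 transcribed bases, shown on the strand of the gene) is printed, because these are the 2 genes that were higher and 2 of those with the steadiest lower calls. The capitals mark matches on either strand to the core of the interferon-stimulated response element (GAAANNGAA), the gamma-activated site of interferon-gamma signalling (TTCNNNGAA), the cyclic AMP response element (TGACGTCA) and the AP-1 site (TGANTCA). A match is a description of the letters and not a bound site.
CD274, chr9:5450292-5450591, plus strand: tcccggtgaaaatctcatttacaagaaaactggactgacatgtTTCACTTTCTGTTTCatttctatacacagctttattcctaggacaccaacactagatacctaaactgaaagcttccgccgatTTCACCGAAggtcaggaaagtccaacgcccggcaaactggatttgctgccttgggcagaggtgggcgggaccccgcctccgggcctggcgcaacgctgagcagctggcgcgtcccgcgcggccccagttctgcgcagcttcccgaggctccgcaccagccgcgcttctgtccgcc
VTCN1, chr1:117210878-117211177, minus strand: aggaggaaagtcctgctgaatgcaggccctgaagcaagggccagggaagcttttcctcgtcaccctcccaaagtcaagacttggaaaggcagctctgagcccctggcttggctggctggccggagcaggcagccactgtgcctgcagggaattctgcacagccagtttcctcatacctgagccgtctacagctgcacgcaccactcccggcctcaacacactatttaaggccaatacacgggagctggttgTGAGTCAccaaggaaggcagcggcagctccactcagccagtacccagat
NT5E, chr6:85449833-85450132, plus strand: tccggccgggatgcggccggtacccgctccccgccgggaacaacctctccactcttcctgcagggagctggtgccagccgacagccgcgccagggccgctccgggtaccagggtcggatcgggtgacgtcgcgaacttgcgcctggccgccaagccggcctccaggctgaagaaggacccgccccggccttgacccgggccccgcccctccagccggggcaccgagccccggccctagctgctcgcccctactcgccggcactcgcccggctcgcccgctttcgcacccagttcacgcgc
NECTIN2, chr19:44846047-44846346, plus strand: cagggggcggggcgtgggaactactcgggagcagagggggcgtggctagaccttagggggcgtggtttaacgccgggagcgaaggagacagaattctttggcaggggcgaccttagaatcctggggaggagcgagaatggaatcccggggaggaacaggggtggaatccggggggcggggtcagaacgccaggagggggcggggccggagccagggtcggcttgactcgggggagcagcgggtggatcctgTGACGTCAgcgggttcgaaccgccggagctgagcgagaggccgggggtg

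The CD274 window held 2 overlapping interferon cores that begin at positions -207 and -201, and a gamma-activated site at -125, counting the first transcribed base as 1. Among all 35116 promoters of this length, 8.11% held the interferon core and 7.66% the gamma-activated site. The VTCN1 window held 1 AP-1 match at position 2, a motif found in 7.71% of the promoters, and the NECTIN2 window held 1 cyclic AMP element at position 2, found in 1.85%. The NT5E window held none of the 4 motifs, had a G and C content of 75%, and held 2 GC boxes (GGGCGG), a motif found in 45.0% of the promoters. In all, promoter windows of 8 of the 10 genes were used. The promoter set held none for PDCD1LG2. Windows on chromosome 8, where IDO1 lies, were left out, so its promoter was not examined.

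CD274 (ENSG00000120217) lies at chr9:5450503-5470566 on the plus strand of hg38. Its FPKM was 3.06, 2.72 and 1.74 in Empty and 4.52, 3.39 and 3.62 in LINC00862, from 834, 730 and 479 counts against 1422, 923 and 999. Each LINC00862 library lay above each Empty library, and the closest pair was separated by less than the spread within either group. This was a rise of 0.80 on the log2 scale (standard error 0.22, adjusted p = 0.0114, edgeR, Benjamini-Hochberg over all tested genes), with means of 2.50 ± 0.683 and 3.84 ± 0.596 FPKM (SD, n = 3). Without LINC00862 library 1, which held the highest value, the adjusted p was 0.0578 at a log2 fold change of 0.69. After FPKM was rescaled to the same sum in every library (TPM), the groups overlapped, with 10.3, 7.65 and 5.35 in Empty and 10.5, 8.06 and 7.06 in LINC00862, and an exact two-sided permutation test gave p = 0.7.

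PDCD1LG2 (ENSG00000197646), at chr9:5510531-5571282, lies 40 kb downstream of CD274 on the same strand, and moved the other way. Its FPKM was 1.85, 1.34 and 1.45 in Empty and 0.0918, 0.140 and 0.0685 in LINC00862, from 299, 214 and 236 counts against 18, 23 and 12. The groups were far apart, the lowest Empty library lying well above the highest LINC00862 library. It fell by 3.71 on the log2 scale (standard error 0.35, adjusted p = 2.16e-05), which is 13.1-fold lower, and was called lower in each of the 15 alternative fits.

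The ratio of the PD-1 ligands within a library does not depend on how libraries are scaled. CD274 FPKM divided by PDCD1LG2 FPKM had a geometric mean of 1.59 in Empty and 39.8 in LINC00862. The groups were 4.65 apart on the log2 scale. Each LINC00862 library exceeded each Empty library, and the exact two-sided permutation test gave p = 0.1 (adjusted p = 0.1 over the 4 ratios compared), the smallest p that 3 libraries against 3 allow. Their summed FPKM was 4.05 ± 0.860 in Empty and 3.94 ± 0.584 in LINC00862 (SD, n = 3), so the sums overlapped while the share of PDCD1LG2 in them was 38.8% ± 6.23 and 2.60% ± 1.18.

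On either side of the pair, PLGRKT, 12.6 kb before CD274, had a log2 fold change of 0.12 (adjusted p = 0.653), and RIC1, 57.7 kb beyond PDCD1LG2, had -0.39 (adjusted p = 0.187). Neither was called. An antisense long noncoding RNA, AL162253 (ENSG00000286162, chr9:5457477-5629748, minus strand), overlaps 13090 bases of CD274 and the whole of PDCD1LG2. Its counts were 74, 52 and 24 in Empty and 220, 150 and 198 in LINC00862, a log2 fold change of 2.03 (adjusted p = 0.00226). The library preparation was strand-specific, but whether the counting used it is not given in the sources used here, so if it did not, reads of the sense and antisense genes cannot be told apart.

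CD276 (B7-H3, ENSG00000103855, chr15:73683966-73714514, plus strand) was the B7 gene with the highest FPKM in every library. Its FPKM was 12.1, 10.5 and 13.5 in Empty and 6.97, 7.08 and 4.51 in LINC00862, from 4384, 3752 and 4932 counts against 2924, 2569 and 1661. All 3 LINC00862 libraries lay below the Empty libraries. It fell by 0.79 on the log2 scale (standard error 0.18, adjusted p = 0.0043) and was called lower in 14 of the 15 alternative fits, the exception being the test against a fold change of 2. The ratio of CD276 to CD274 FPKM went from a geometric mean of 4.90 in Empty to 1.59 in LINC00862 (difference -1.62 on the log2 scale, exact permutation p = 0.1, the smallest possible).

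VTCN1 (B7-H4, ENSG00000134258, chr1:117143587-117210960, minus strand) was almost absent from the Empty libraries, with counts of 0, 8 and 8, where a count of 0 allows up to 3 counts from counting error alone. In LINC00862 its counts were 270, 197 and 194. The FPKM was 0, 0.0405 and 0.0368 in Empty and 1.16, 0.981 and 0.952 in LINC00862. The 3 LINC00862 libraries were tightly grouped, and each was far above the highest Empty library. The fitted log2 fold change was 5.40 (standard error 0.72). The gene passed the filter only through the group where it is high, so its adjusted p (0.000176, edgeR) and its calls in other fits add nothing to these counts. Even so, its FPKM in LINC00862 stayed below that of CD274 and CD276.

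The B7 list held 10 genes, of which 7 were tested, 2 higher and 3 lower (71.4% called beside 64.2% of all tested genes), with a median log2 fold change of 0.26. Beside the 4 genes above, VSIR, which encodes the T cell inhibitor VISTA, fell by 5.43 on the log2 scale (adjusted p = 5.52e-07), from a mean of 3.81 to 0.0762 FPKM. NCR3LG1, the ligand of the NK cell receptor NKp30, is named because of its share although it lay outside the naming rule. It spread widely within Empty, at 3.63, 0.753 and 0.137 FPKM, against 3.79, 6.43 and 3.30 in LINC00862, and was not called (adjusted p = 0.0853).

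The summed FPKM of the B7 list was 21.8 ± 3.13 in Empty and 16.1 ± 2.94 in LINC00862 (SD, n = 3). Within the sum, CD276 held 55.5% in Empty and 38.1% in LINC00862, CD274 11.6% and 24.4%, VSIR 17.5% and 0.469%, PDCD1LG2 7.10% and 0.610%, VTCN1 0.129% and 6.52%, and NCR3LG1 6.41% and 27.6%. CD276 and CD274 thus made up most of the B7 RNA in LINC00862 together with NCR3LG1, whereas VSIR ranked second in Empty. CD80 and CD86, the costimulatory ligands of CD28, were too low to test in either group.

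**Figure D1:**
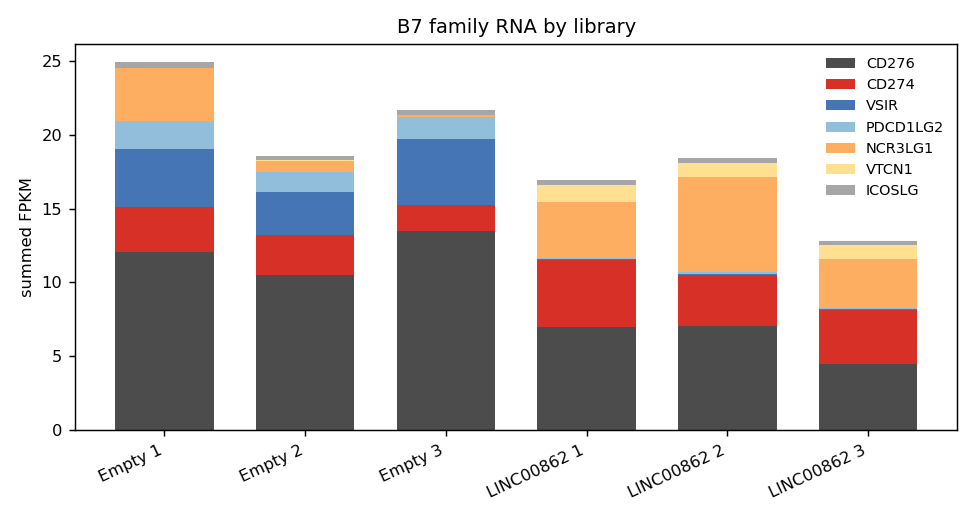
Summed FPKM of 7 genes of the B7 family in each of the 6 libraries, as stacked bars from 0. The VSIR (blue) and PDCD1LG2 (light blue) segments are visible in Empty and nearly gone in LINC00862, while the VTCN1 segment (pale yellow) is visible in the LINC00862 libraries, and the NCR3LG1 segment (orange) differs between the Empty libraries.

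PVR (CD155, ENSG00000073008, chr19:44643798-44666162, plus strand) had the highest mean FPKM of the 10 genes in both groups. Its FPKM was 28.3, 25.2 and 24.5 in Empty and 18.6, 19.7 and 14.9 in LINC00862, from 11438, 10047 and 9979 counts against 8678, 7932 and 6105. The groups did not overlap. It fell by 0.38 on the log2 scale (standard error 0.13, adjusted p = 0.029), and this call held in only 7 of the 15 alternative fits. It was lost without Empty library 2 (adjusted p = 0.0708) and without LINC00862 library 1, 2 or 3 (adjusted p = 0.0855, 0.0654 and 0.0912), and with upper quartile scaling the log2 fold change was -0.17 (adjusted p = 0.265).

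NECTIN2 (CD112, ENSG00000130202, chr19:44846175-44889223, plus strand) lies beyond PVR on the same chromosome. Its FPKM was 18.7, 19.8 and 25.3 in Empty and 8.18, 7.501 and 5.90 in LINC00862, from 4644, 4843 and 6319 counts against 2341, 1855 and 1482. The highest LINC00862 library was well below the lowest Empty library. It fell by 1.40 on the log2 scale (standard error 0.19, adjusted p = 0.000168), with a call in each of the 15 alternative fits. The neighbours BCAM and TOMM40 had log2 fold changes of 0.10 and 0.12 and were not called. This was not general. Both neighbours of NT5E were called lower, SNX14 at 9.7 kb (log2 fold change -1.06) and TBX18 at 686 kb (-7.53). Both neighbours of CD47, BBX and IFT57, were also called lower (-1.24 and -1.01). CD276, VTCN1, PVR, LGALS9 and IDO1 each had a called neighbour as well, some higher and some lower.

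The ratio of PVR to NECTIN2 FPKM had a geometric mean of 1.23 in Empty and 2.47 in LINC00862. The groups were 1.01 apart on the log2 scale and did not overlap (exact permutation p = 0.1, the smallest possible). Other genes overlap PVR, and whether their reads entered its count was not tested. CEACAM19, on the same strand, shares 3885 bases with it and had a log2 fold change of 2.09, from a mean of 0.910 to 3.47 FPKM. The antisense transcript AC243964 (ENSG00000266903) spans PVR, with 37, 33 and 26 counts in Empty and 292, 310 and 246 in LINC00862.

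Of 15 genes listed for the nectin network, 10 were tested, 1 was higher and 5 were lower (60% called beside 64.2% of all tested genes), with a median log2 fold change of -0.84. The higher gene passed the filter only through the LINC00862 libraries. NECTIN3, an adhesion partner of the nectins, fell by 3.63 on the log2 scale (adjusted p = 2.17e-06), from 2.24 to 0.156 FPKM. The receptor TIGIT was too low to test in both groups.

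LGALS9 (galectin-9, ENSG00000168961, chr17:27629798-27649560, plus strand), a secreted lectin that binds the T cell receptor TIM-3, was low in every library. Its FPKM was 0.0932, 0.186 and 0.190 in Empty and 0.277, 0.160 and 0.171 in LINC00862, from 37, 72 and 74 counts against 125, 62 and 67. The groups overlapped, and the log2 fold change of 0.52 (standard error 0.44) was not called (adjusted p = 0.323). With TPM the log2 ratio of means was -0.07, so that not even the sign held.

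Galectin-9 has 2 near copies. LGALS9B had 1 count over the 3 Empty libraries and 1439 over the LINC00862 libraries, a ratio of 1536 after scaling (exact 95% interval 275 to 60693, counting error only), and LGALS9C had 1 and 398. The summed FPKM of LGALS9, LGALS9B and LGALS9C was 0.158 ± 0.0520 in Empty and 3.14 ± 0.368 in LINC00862 (SD, n = 3). In the GENCODE 29 transcripts, 69.7% of the 50-base stretches of the longest LGALS9B transcript also occur in LGALS9C, and 5.12% and 7.504% of those of LGALS9 (3114 bases) occur in LGALS9B and LGALS9C. How the counts were split between the copies is uncertain. Of 8 galectins tested, 3 were higher and 1 was lower, which is 50% beside 64.2% of all tested genes. LGALS9B and LGALS9C passed the filter only through the LINC00862 libraries, so this share is only a description. LGALS8 went from 4.99 to 13.96 FPKM (log2 fold change 1.67), and LGALS1, which promotes T cell death, fell by 7.81 on the log2 scale, from 1082 to 4.30 FPKM.

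CD47 (ENSG00000196776, chr3:108043091-108091862, minus strand) differed least by the test. Its FPKM was 12.2, 9.92 and 9.69 in Empty and 9.96, 8.47 and 9.43 in LINC00862, from 6658, 5329 and 5324 counts against 6265, 4605 and 5202. The groups overlapped. Its log2 fold change of -0.01 (standard error 0.14) was not called (adjusted p = 0.967), its sign turned under other scalings, and relative to the median of all tested genes it was -0.12. After rescaling to TPM the groups no longer overlapped, with a mean of 33.0 in Empty and 20.6 in LINC00862. The ratio of CD47 to CD274 FPKM, free of scaling, had a geometric mean of 4.33 in Empty and 2.43 in LINC00862 (difference -0.83 on the log2 scale, exact permutation p = 0.1, the smallest possible).

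Around CD47, 13 genes of a list of ligands, receptors and modifying enzymes were tested, 1 higher and 5 lower (46.2% called beside 64.2% of all tested genes, median log2 fold change -0.45). THBS1 and THBS2, thrombospondins of the extracellular matrix, of which THBS1 is a ligand of CD47, were lower. THBS1 went from 63.0 to 2.46 FPKM (log2 fold change -4.49). THBS2 had 1514 counts over the Empty libraries and 2 over the LINC00862 libraries, a ratio of 709 after scaling (exact 95% interval 196 to 5863, counting error only). B2M, the light chain of MHC class I, rose from 288 to 497 FPKM (log2 fold change 0.96).

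NT5E (ENSG00000135318, chr6:85449584-85495791, plus strand) was among the 3 highest genes in Empty, with FPKM of 27.1, 22.5 and 17.4, and was at 7.36, 7.60 and 6.20 in LINC00862. The counts were 8122, 6650 and 5271 against 2552, 2276 and 1886. The Empty libraries spread more widely, yet the lowest of them was more than double the highest LINC00862 library. It fell by 1.48 on the log2 scale (standard error 0.16, adjusted p = 4.53e-05) and was called in each of the 15 alternative fits.

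Of 14 tested genes that form, degrade, carry or sense extracellular adenosine, 7 were higher and 6 were lower, a share of 92.9% called beside 64.2% of all tested genes. Several of the higher genes, among them ENTPD3 and ALPL, passed the filter only through the LINC00862 libraries, so this share is only a description. ADORA2B and ADORA1, adenosine receptors, were lower, with log2 fold changes of -4.18 and -2.42, ADORA2B from 15.2 to 0.743 FPKM and ADORA1 from 2.09 to 0.350. DPP4, the membrane anchor of adenosine deaminase, rose from 0.188 to 1.44 FPKM and the nucleoside transporter SLC29A2 from 6.97 to 21.4. ADA, the gene of the deaminase itself, was lower, from 5.74 to 1.15 FPKM (log2 fold change -2.15). The ectonucleotidase ENTPD3 and the alkaline phosphatase ALPL, named because every Empty library was at 0 counts, were at least 180-fold and 24.2-fold higher in LINC00862, taking 3 counts over the group as the floor.

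IDO1 (ENSG00000131203, chr8:39902275-39928790, plus strand) was close to the limit of detection. Its counts were 28, 18 and 11 in Empty and 0, 8 and 0 in LINC00862, or 0.115, 0.0772 and 0.0408 FPKM against 0, 0.0339 and 0. The ranges did not overlap, but the values were low in both groups. The log2 fold change of -2.66 (standard error 1.14) was not called (adjusted p = 0.0681). It was called with limma-trend on log2(FPKM + 1) and on log2(FPKM + 0.1) (adjusted p = 0.0487 and 0.0186). It was also called without LINC00862 library 2 (adjusted p = 0.00521), but that library held all the counts of its group. Since IDO1 passed the filter only through the Empty libraries, where it is high, none of these calls is support for a difference.

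Of 14 genes tested of the tryptophan pathway, 7 were higher and 4 lower (78.6% called beside 64.2%), with a median log2 fold change of 0.78. KYNU, which cleaves kynurenine, and QPRT, which leads quinolinate into NAD synthesis, rose by 8.04 and 8.15 on the log2 scale, KYNU from 0.0552 to 13.1 FPKM and QPRT from 0.238 to 61.3. The transaminases KYAT1 and KYAT3, which form kynurenic acid, were lower, with log2 fold changes of -1.79 and -1.69, KYAT1 from 3.27 to 0.844 FPKM and KYAT3 from 15.0 to 4.12.

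**Figure D2:**
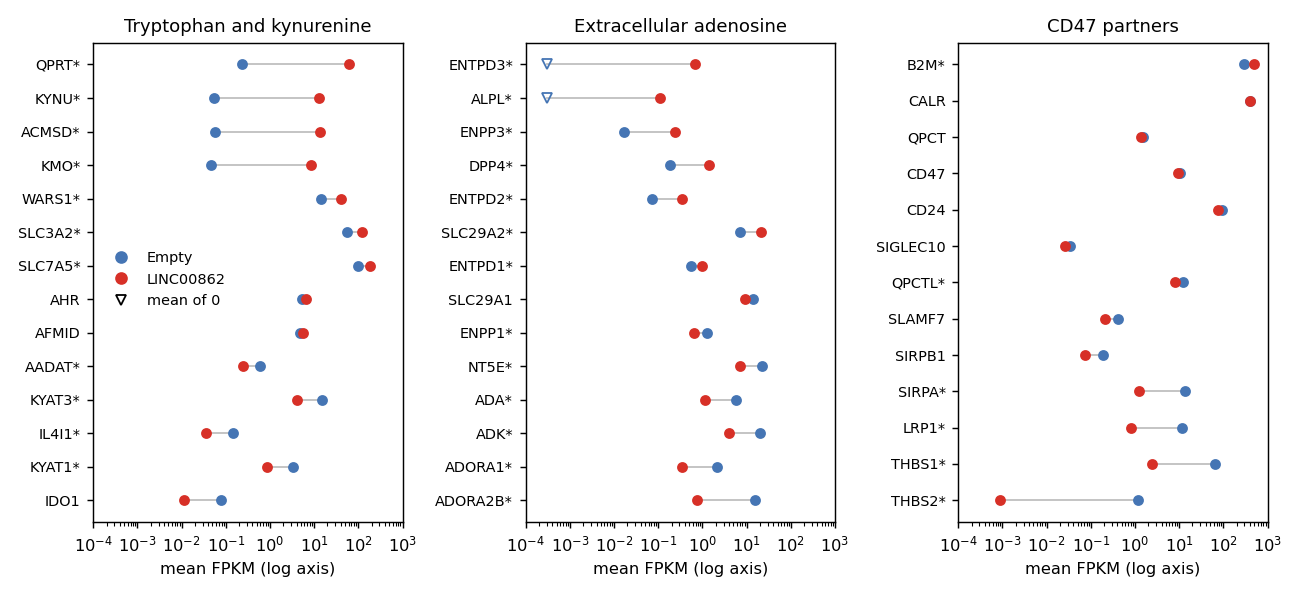
Mean FPKM (log axis, n = 3 libraries per group) of the tested genes of 3 pathways in Empty (blue) and LINC00862 (red), ordered by log2 fold change, with an asterisk for genes called by edgeR at a false discovery rate of 0.05 and open triangles for a mean of 0. KYNU and QPRT are far to the right in LINC00862, ADORA2B, THBS1 and THBS2 far to the left, and the points of CD47 nearly coincide.

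In Empty, the order of mean FPKM was PVR (26.0), NT5E (22.3), NECTIN2 (21.3), CD276 (12.0), CD47 (10.6), CD274 (2.50), PDCD1LG2 (1.55), LGALS9 (0.156), IDO1 (0.0776) and VTCN1 (0.0258). The ranges of the neighbours PVR and NT5E, NT5E and NECTIN2, CD276 and CD47, CD274 and PDCD1LG2, and LGALS9 and IDO1 overlapped between libraries. Within each Empty library, PVR was still above NT5E and CD274 above PDCD1LG2, while the other pairs changed order. In LINC00862, the order was PVR (17.7), CD47 (9.29), NECTIN2 (7.19), NT5E (7.05), CD276 (6.19), CD274 (3.84), VTCN1 (1.03), LGALS9 (0.202), PDCD1LG2 (0.1001) and IDO1 (0.0113). Here NECTIN2, NT5E and CD276 overlapped, and CD276 met CD274 at its lowest library. CD47 moved from the fifth place to the second although its own call was absent, and VTCN1 from the last to the seventh.

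The summed FPKM of the 10 genes was 96.6 ± 6.09 in Empty and 52.7 ± 6.04 in LINC00862 (SD, n = 3), without overlap. PVR made up 26.9% of the sum in Empty and 33.7% in LINC00862. The sum of the FPKM over all genes was 296336 to 354830 in Empty and 420733 to 512467 in LINC00862, so that TPM places every gene lower in LINC00862 relative to Empty than FPKM does. On the TPM scale the log2 ratio of means was -1.41 for CD276, -1.02 for PVR, -2.14 for NT5E, -2.02 for NECTIN2, -4.41 for PDCD1LG2 and 4.92 for VTCN1.

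**Figure D3:**
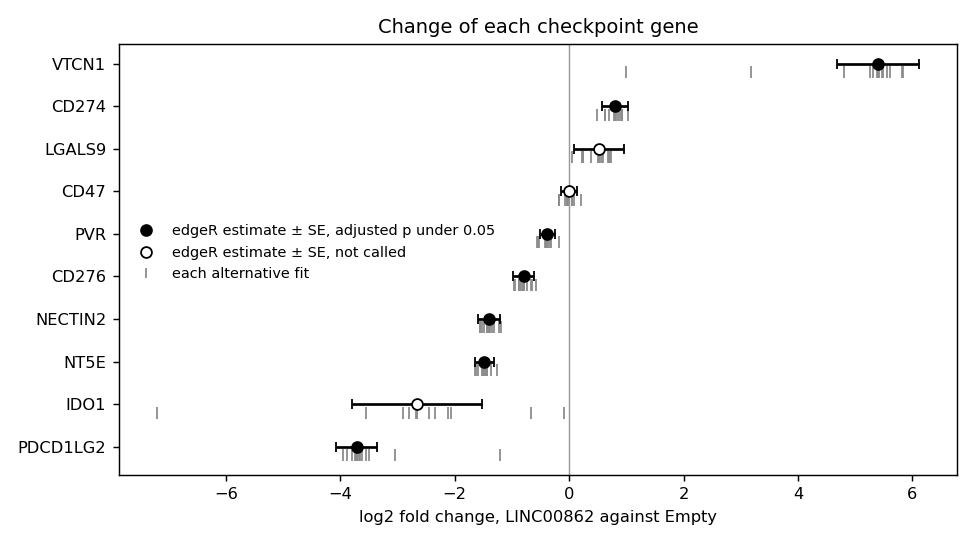
Log2 fold change of each checkpoint gene, LINC00862 against Empty, from edgeR (circle, bar of 1 standard error on each side, n = 3 libraries per group, filled where the adjusted p was under 0.05), with small ticks for the 15 alternative fits. VTCN1 (5.40) and CD274 (0.80) lie to the right, PDCD1LG2 (-3.71), NT5E (-1.48) and NECTIN2 (-1.40) to the left, and CD47 sits at 0 with ticks on both sides.

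Beyond these genes, 120 genes of the 9 pathway lists were tested, the 10 genes themselves left out. Of them, 33 were higher and 47 lower, which is 66.7% beside 64.2% of all tested genes. The lists hold genes that passed the filter only through a single group, so the shares called are only descriptions. Other ligands of inhibitory or costimulatory receptors numbered 19, of which 7 were higher and 8 lower (78.9% called). FGL1, a ligand of LAG3 secreted by hepatocytes, rose by 8.56 on the log2 scale, from 0.537 to 185 FPKM, and CEACAM1, an adhesion molecule that inhibits T and NK cells, rose from 0.152 to 3.70 FPKM. CD70 and TNFSF9, costimulatory ligands of CD27 and 4-1BB, were lower, with log2 fold changes of -5.29 and -3.69, CD70 from 21.7 to 0.491 FPKM and TNFSF9 from 21.8 to 1.505.

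Among 36 regulators of CD274, 6 were higher and 15 lower (58.3% called beside 64.2% of all tested genes), with a median log2 fold change of -0.40. CMTM4, which stabilises the PD-L1 protein, rose from 2.59 to 16.7 FPKM, and NLRC5, the transactivator of MHC class I genes, from 3.96 to 16.5. CMTM6, of the same family and list as CMTM4, went the other way, from 23.1 to 7.85 FPKM (log2 fold change -1.37), and was called lower. CMTM3, of the same family as CMTM4, fell by 6.77 on the log2 scale, from 8.89 to 0.0721 FPKM, and JUN, an AP-1 subunit, had a log2 fold change of -1.78 and was called lower.

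Of 12 ligands of activating NK cell receptors tested, 1 was higher and 5 were lower (50% called beside 64.2% of all tested genes), with a median log2 fold change of -0.38. MICB and RAET1G, ligands of NKG2D, were lower, with log2 fold changes of -2.76 and -2.48, MICB from 13.1 to 1.69 FPKM and RAET1G from 1.86 to 0.289.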

How the data were processed

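RNA was measured in 6 HCCLM3 libraries grouped by their labels. The libraries were made from poly(A) RNA by a stranded dUTP protocol, with molecular identifiers in the adapters. Raw gene counts were deposited, together with FPKM values that the authors scaled for gene length and library. The submitters' processing notes name cutadapt 1.9, HISAT2 2.0.4, UMI-tools, StringTie 1.3.4d, edgeR, DESeq2 and hg38. Whether identifiers were collapsed and whether counting used the strand are not given in the sources used here.

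Counts were tested with edgeR 4.0.16 in R 4.3.3 (filterByExpr, TMM scaling, quasi-likelihood test, Benjamini-Hochberg adjustment over all tested genes, false discovery rate 0.05), after the scripts were tested on simulated data. In the simulation only a small part of the genes changed, so it did not cover a comparison with 64.2% of tested genes called. Every pair of libraries differed beyond sampling noise, so none was a duplicate. Single FPKM values and within-library ratios were compared by exact two-sided permutation tests, whose smallest p here is 0.1. A count of 3 over a group was the floor, and genes with 1 to 3 counts over a group are given as a ratio with an exact binomial 95% interval; both cover counting error only. Alternatives tried were a replicate block, omitting single libraries, DESeq2 1.42.0, scaling by upper quartiles or by library size alone, no filter beyond 1 count, limma-trend (limma 3.58.1) on log2(FPKM + 1) and log2(FPKM + 0.1), glmTreat for a fold change of 2, an FDR of 0.01, and TPM or counts in place of FPKM.

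The genes, lists and tests were chosen with earlier results of these data known. Of each list, up to 2 genes with the largest rise and 2 with the largest fall were named, among called genes whose mean FPKM reached 1 in either group. NCR3LG1, ENTPD3, ALPL, ADA, CMTM6, LGALS9C, TIGIT, CD80, CD86 and the markers ALB, AFP, APOA1, FGA, TTR, GPC3 and PTPRC were named outside this rule, after their values were seen. Of the 10 genes, 4 have the same start and end in GENCODE 29 and 6 differ. Promoter sequences are from RefSeq (GRCh38.p14). Figures were made with Python 3.11.15.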

Additional observations from a re-analysis of the deposited data

How the results depend on the processing

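Of the 10 genes, 7 were called, and this number was 5 to 7 when 1 library was left out, 6 with the replicate block, 5 at a false discovery rate of 0.01, 8 with either limma-trend fit, and 4 against a fold change of 2, where the number of list genes called was 52 in place of 80. That last test called 8010 of all genes in place of 13321, and 3 in place of 5 of the B7 list, 7 in place of 11 of the tryptophan list and 6 in place of 21 regulators of CD274. PDCD1LG2, NT5E and NECTIN2 kept their direction and call in all 15 alternative fits. CD276 lost its call only against a fold change of 2. CD274 kept its call in 12 of them, and lost it against a fold change of 2, at a false discovery rate of 0.01 and without LINC00862 library 1, where 1 gene in place of 2 was called higher. PVR kept its call in 7.

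The log2 fold change of CD47 was 0.0411 with DESeq2 and 0.21 with upper quartile scaling, and ranged from -0.0668 to 0.0873 when 1 library was left out. The log2 ratio of mean TPM of LGALS9 was -0.0669. Over all tested genes the median shifted from 0.11 to 0.16 (DESeq2), 0.32 (upper quartile scaling) and -0.05 (library size only), and relative to it CD47 lay at -0.12 or -0.13 in each. Same-numbered libraries did not deviate together (correlations -0.049, -0.025 and -0.007), so no pairing by number was seen. With 3 libraries per group, this cannot exclude that same-numbered libraries were handled together. With the replicate block, PVR was not called (adjusted p = 0.102). The 4 ratios kept their sign when 1 library was left out, where the exact test cannot give a p below 0.2. The cause of these shifts was not tested. The low counts of IDO1, LGALS9 and, in Empty, VTCN1 limit the precision of their folds.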
